A study of Sus scrofa with 6 samples.

Results

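The transcripts described here are those that the study's assembly classed as mRNA without a matching Ensembl transcript in pig muscle, called unannotated mRNA transcripts below. They were chosen by their FPKM values. FPKM is a fragment count corrected for transcript length and for library size, and a transcript was kept where it exceeded 0.1 in at least 1 of 6 libraries. Of 9664 such transcripts listed, 9472 passed, among 52102 transcripts of all kinds that passed the same limit. They belonged to 5678 assembled loci, and 3766 of these loci held a single transcript. The highest value of Novel_000586, just inside the limit, was 0.1001 FPKM, and that of Novel_003527, just outside it, was 0.1 FPKM. Because the limit used these FPKM values, their size is given as a description.

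The libraries came from the longissimus thoracis (LT) and the semitendinosus (ST) of 3 Min pigs, a Chinese local breed, with 3 libraries per muscle. All pigs had the genotype label WT, were of the same age and received no treatment named in the labels. Each pig gave 1 LT and 1 ST sample, which share its number. Total RNA was depleted of rRNA and made into libraries with a kit that marks the strand of the RNA. The strand setting used in mapping and assembly is not given in the sources used here. The files hold FPKM alone, so the depth behind a single value is unknown and no counting interval was computed. With 3 libraries per muscle, the exact permutation test of a single value cannot go below p = 0.1. That test treats the 6 libraries as independent and does not use the pairing by pig.

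Transcript assemblers join spliced reads into exon chains and report a chain as unannotated when it matches no known transcript. Such a chain can be an unlisted isoform, a transcript between known genes, a transcript of the other strand of a known gene, or a product of read assignment. Whether it is classed as mRNA or lncRNA rests on its predicted coding potential, not on a detected protein. In skeletal muscle, most mRNA encodes proteins of the sarcomere, the contractile unit, and the enzymes that supply it with ATP, and slow and fast fibres use different isoforms of these proteins.

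The libraries were checked before they were compared. Muscle genes were abundant in both muscles: ACTA1, the skeletal actin, was at 2429 ± 607 FPKM (SD, n = 3) in LT and 2361 ± 568 FPKM in ST. ST replicate 2 stood apart. Over the unannotated mRNA transcripts, its log2(FPKM + 0.1) values had a Pearson r of 0.664 with ST replicate 1 and 0.645 with ST replicate 3, while ST replicates 1 and 3 had an r of 0.72 with each other. With LT replicate 2, from the same pig, its r was 0.698, and the same-pig values of ST replicates 1 and 3 were 0.679 and 0.666. These coefficients are across transcripts, which are not independent replicates. The main results that rest on ST replicate 2 are given with and without it. It was singled out from these same values, so the p-values without it are descriptions and not separate support.

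Most unannotated mRNA transcripts lay across from a known gene. On the coordinates of Sscrofa11.1, 7583 of 9472 (80.1%) overlapped an annotated gene on the opposite strand and none on their own strand, by at least 1 base. Another 234 (2.47%) overlapped a gene on their own strand, and 207 of these also lay opposite to a second gene. On chromosomes, 752 (7.94%) overlapped no annotated gene. The remaining 903 (9.53%) were on 75 unplaced scaffolds, for which the files list no annotated transcript. Only 27 transcripts therefore shared the strand of an annotated gene without lying opposite to another one.

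**Figure D1:**
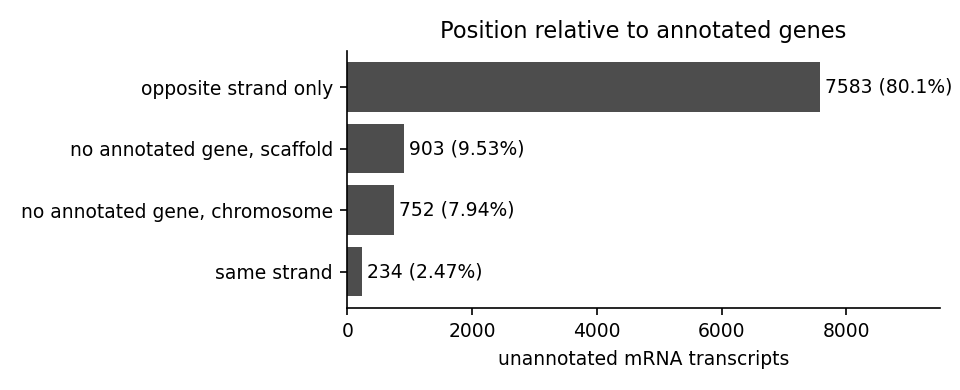
Number of unannotated mRNA transcripts in each class of position relative to annotated genes, with the share of all 9472. The bar for transcripts that overlap a gene on the opposite strand only holds 7583 transcripts, and the bar for the same strand holds 234.

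The transcripts opposite to genes mostly lay within the span of an annotated transcript. Of the 7583, 6226 (82.1%) had at least 90% of their span inside 1 annotated transcript of the other strand, and 2848 (37.6%) had the same number of exons as an annotated transcript there. For comparison, the share with a matching exon number was 8.95% among 1553 unannotated antisense lncRNAs and 21.2% among 7935 unannotated intronic lncRNAs. All of these 1553 and 7935 lncRNAs also lay opposite to an annotated gene. The shares were not matched for exon number: the median was 3 for all unannotated lncRNAs and 8 for the 7583 mRNA transcripts. A match to any annotated transcript there counted, and no level expected by chance was computed. The exon number of the 7583 mRNA transcripts had a Spearman rho of 0.597 with the largest exon number annotated on the other strand, given as a description across transcripts. The files do not hold reads, so fragments of a gene and fragments of its opposite strand cannot be told apart here.

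The unannotated mRNA transcripts were long and rich in exons. Their median length was 2634 bases (quartiles 1633 and 4360) with a median of 7 exons, against 3354 bases and 11 exons for 28995 annotated mRNA transcripts. The 12437 unannotated lncRNA transcripts had a median of 760.0 bases and 3 exons. All unannotated mRNA transcripts had at least 2 exons. Exon number followed position: the median was 8 for transcripts opposite to a gene and for those on scaffolds, 4 for those on the strand of a gene, and 2 for those between genes on chromosomes. Of the 752 between genes, 401 (53.3%) had exactly 2 exons, against 641 (8.45%) of those opposite to a gene.

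The longest transcripts and those with the most exons were opposite to TTN, which encodes titin, the giant elastic protein of the sarcomere. Novel_002968 at chr15:84228054-84501244, on the plus strand, was 98966 bases long with 300 exons. It had 0.925, 3.06 and 0.938 FPKM in LT and 0.993, 4.43 and 0.0499 FPKM in ST. Novel_002972, with 98915 bases, and Novel_002966, with 98513 bases, had the same ends. Novel_002973 held 301 exons, the most of all. In 5 of the 6 libraries it had at most 0.0203 FPKM, and it had 1.07 FPKM in LT replicate 2.

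FPKM of the unannotated mRNA transcripts was low. The median transcript had 0.229, 0.220 and 0.252 FPKM in the LT libraries and 0.254, 0.229 and 0.230 FPKM in the ST libraries. Annotated mRNA transcripts that passed the same limit had medians from 0.696 to 0.907 FPKM, or 3.38 ± 0.274 times the value of the unannotated ones (SD, n = 6). This direction belongs to transcripts above the limit: over all listed mRNA transcripts, many of which are annotated and listed near 0, the ratio was 0.232. A mean above 1 FPKM was reached by 1189 (12.6%) unannotated mRNA transcripts, by 14205 (49%) annotated ones and by 675 (5.43%) unannotated lncRNAs.

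**Figure D2:**
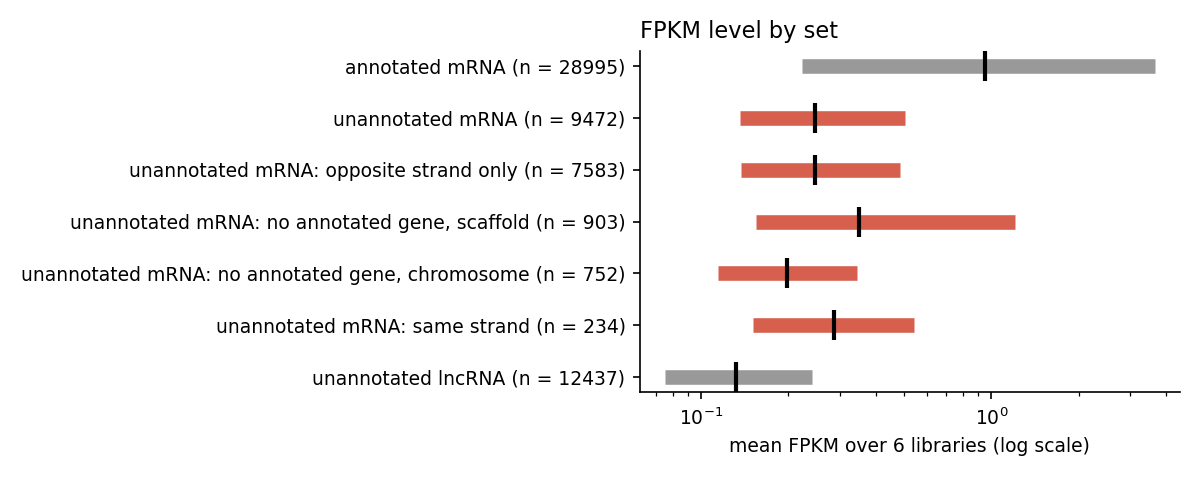
Mean FPKM over 6 libraries, on a log scale, for annotated mRNA transcripts, unannotated mRNA transcripts in all and by position, and unannotated lncRNA transcripts. Bars span the first to the third quartile and black lines mark medians, which were 0.951 FPKM for annotated and 0.248 FPKM for unannotated mRNA transcripts.

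Detection differed between the positions. FPKM exceeded 0.1 in all 6 libraries for 3895 (41.1%) of the unannotated mRNA transcripts and in a single library for 1202 (12.7%). Transcripts on scaffolds had the highest median of the classes, 0.350 FPKM as a mean over libraries, and those between genes on chromosomes the lowest, 0.198 FPKM. Among the 903 on scaffolds, 251 (27.8%) had a mean above 1 FPKM. The spread between libraries of a muscle was wide: for transcripts with a mean above 1 FPKM, the median coefficient of variation was 27.6% in LT and 34.6% in ST. It was 24.4% and 26.6% for annotated mRNA transcripts with a mean above 1 FPKM. Summing over the mRNA transcripts of a locus gave 20.1% in LT and 21.9% in ST.

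The 10 most abundant transcripts lay on a scaffold named AEMK02000489.1 or opposite to annotated genes. Of the 10 with the highest mean, 3 were on this scaffold. Novel_008986, on the minus strand at 152 to 51634 of the scaffold, had 1046, 984 and 981 FPKM in LT and 514, 618 and 0.765 FPKM in ST. Novel_008974, on the plus strand, had 0.0120, 2173 and 1.05 FPKM in LT and 81.5, 721 and 12.2 FPKM in ST. Novel_008977, from the same locus as Novel_008974, had 1119, 0.0783 and 16.3 FPKM in LT and 0.0786, 0 and 247 FPKM in ST. These 3 transcripts thus swung by orders of magnitude between pigs of 1 muscle. The sum over the 19 unannotated mRNA transcripts of the scaffold was steadier, with 2657, 4733 and 1807 FPKM in LT and 1512, 2075 and 753 FPKM in ST.

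The remaining 7 of these 10 transcripts were opposite to known muscle genes. Novel_000145, at chr1:108992938-109016050, lay opposite to TPM1, a tropomyosin that covers the actin filament. It had 779, 729.9 and 693 FPKM in LT and 114, 280.4 and 23.8 FPKM in ST, so every LT library was above every ST library. Novel_006524, at chr6:51703532-51714913, lay opposite to CKM, the muscle creatine kinase that buffers ATP. It had 559, 387 and 335 FPKM in LT and 499, 236 and 472 FPKM in ST, and the muscles overlapped. Novel_005231, opposite to the glycolytic enzyme ALDOA at chr3:18253982-18260168, had 499, 42.2 and 471 FPKM in LT and 102, 50.7 and 104 FPKM in ST. LT replicates 1 and 3 stood above the other 4 libraries.

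Novel_004418 and Novel_004419 lay at chr2:1299259-1316518, opposite to TNNT3, the fast troponin T. Novel_004418 had 267, 510.0 and 454 FPKM in LT and 2.19, 139 and 0.528 FPKM in ST, and Novel_004419 had 367, 163 and 120.5 FPKM in LT and 54.1, 394 and 17.2 FPKM in ST. Novel_001765 lay opposite to MYL3, a light chain of slow myosin, at chr13:29730093-29735657. It had 57.6, 39.4 and 54.5 FPKM in LT and 330.0, 73.6 and 309 FPKM in ST. Novel_009636, at chrX:111356409-111367955, lay opposite to FHL1, a LIM protein of muscle, and had 66.9, 56.9 and 106 FPKM in LT against 281, 159 and 257 FPKM in ST. None of the 10 was called between the muscles with all libraries. Without ST replicate 2, the adjusted p was 0.0173 for Novel_004418 and 0.0199 for Novel_001765.

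Between genes on chromosomes, the level rested on few transcripts. The highest was Novel_003785 at chr18:32644542-32646652, where RefSeq lists the lncRNA LOC100519283, with 68.4, 77.6 and 3.18 FPKM in LT and 37.5, 64.6 and 27.3 FPKM in ST. Novel_003786, of the same locus, had 28.8, 9.36 and 37.4 FPKM in LT and 22.0, 5.52 and 24.5 FPKM in ST. Novel_006348 lay at chr5:63670307-63681370, where RefSeq lists C1S, a serine protease of the complement cascade. It had 24.5, 28.9 and 32.0 FPKM in LT and 28.5, 23.1 and 31.9 FPKM in ST, and the muscles overlapped. Novel_006112 lay at chr5:63644154-63655795, where RefSeq lists C1R, the partner protease of C1S. It had 11.4, 14.6 and 12.2 FPKM in LT and 10.9, 12.6 and 12.9 FPKM in ST. In contrast, Novel_005640 at chr4:100484655-100506981 was listed at 0 in 3 libraries and reached 45.3 FPKM in ST replicate 2. Of the 752 transcripts of this class, 512 (68.1%) overlapped a RefSeq gene of the same build on either strand, 361 of them a protein-coding one. The RefSeq table used gives no strand. The median distance to the nearest annotated gene of the files was 10069.5 bases.

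Scaffold transcripts often had a counterpart. Of 903, 748 (82.8%) overlapped another unannotated transcript on the opposite strand. AEMK02000452.1 held 243 and AEMK02000682.1 held 224 of the 903. Novel_008779, with 13 exons on the first of these, had 209, 198 and 112 FPKM in LT and 82.8, 158 and 87.2 FPKM in ST. Novel_009251, on the second, had 166, 143 and 202 FPKM in LT and 74.4, 155 and 118 FPKM in ST. Both were abundant in every library, and for both LT and ST overlapped.

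Transcripts on the strand of a gene were few, with a median of 0.287 FPKM as a mean over libraries. The most abundant, Novel_006966 at chr6:49933429-49936376, also lay opposite to RABAC1, which acts in vesicle traffic, and had 12.0, 11.6 and 9.78 FPKM in LT and 10.2, 7.53 and 8.51 FPKM in ST. No transcript of this class had a mean above 10 FPKM.

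The level of an opposite-strand locus was a small share of that of its gene. For 3571 loci opposite to exactly 1 gene that exceeded 1 FPKM in every library, the summed FPKM of the locus was divided by that of the gene. The median share was 6.36%, 6.18% and 6.49% in the LT libraries and 5.82%, 5.47% and 5.32% in the ST libraries. All LT values were above all ST values (LT 6.34% ± 0.155, ST 5.54% ± 0.257, SD, n = 3 each), with p = 0.1 by a two-sided exact permutation test, the smallest it allows. The lower quartile of a library was 2.85% at the lowest, and the upper quartile 10.8% at the highest. In no library did more than 4 of these loci exceed their gene. Across loci, the log2 levels of locus and gene had a Pearson r of 0.753, given as a description of loci that share libraries.

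**Figure D3:**
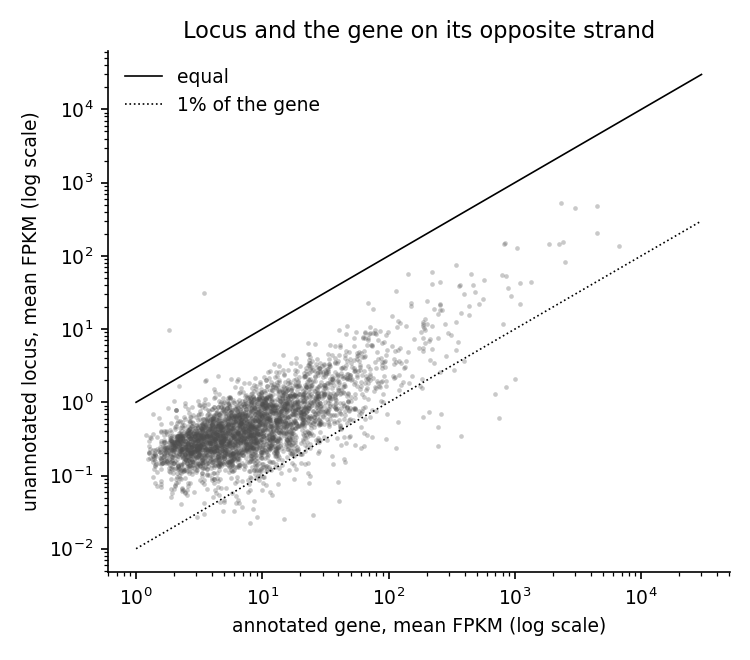
Mean FPKM of 3571 unannotated loci against the mean FPKM of the annotated gene on the opposite strand, both on log scales, 1 point per locus. Nearly all points run below the line of equal level and most above the line at 1% of the gene, and the median share lay between 5.32% and 6.49% in every library.

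The unannotated mRNA transcripts held a larger share of FPKM in LT than in ST. It reached 3.62%, 4.07% and 3.70% in the LT libraries against 3.12%, 3.32% and 2.80% in those of ST, without overlap (difference -0.720 percentage points, p = 0.1, two-sided exact permutation test, the smallest possible). The 19 transcripts of scaffold AEMK02000489.1 made up 0.783% ± 0.385 of FPKM in LT and 0.372% ± 0.181 in ST. Without them, in a calculation added after the data were seen, the share was 3.02% ± 0.189 in LT and 2.71% ± 0.0831 in ST. Mitochondrial transcripts took 6.47% ± 1.48 of FPKM in LT and 13.9% ± 1.65 in ST, and as a share of nuclear FPKM the difference was -0.487 percentage points.

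ST was then compared with LT transcript by transcript, since the study set out to compare muscles that differ in intramuscular fat. Calls came from limma on log2(FPKM + 0.1) over all 52102 transcripts, and needed a Benjamini-Hochberg p below 0.05 and more than 1 log2 unit of difference. Of the 9472 unannotated mRNA transcripts, 6 were called, 1 higher and 5 lower in ST. Over all transcripts, 0.146% were called, 0.0825% higher and 0.0633% lower. At an unadjusted p under 0.05 with the same fold limit, 623 unannotated mRNA transcripts passed, 303 higher and 320 lower, beside 6.95% of all transcripts. Among all transcripts, 2145 passed higher and 1478 lower. The 2 groups of libraries stood fully apart for 724 unannotated mRNA transcripts higher and 737 lower in ST, together 15.4%, beside 16.3% of all transcripts. Among all transcripts, 5143 stood apart higher and 3354 lower. The median log2 difference was 0.01 for the unannotated mRNA transcripts and 0.09 for all transcripts.

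All 6 called transcripts were listed at 0 in at least 2 libraries of the lower muscle, so no fold change is given. Each passed the FPKM limit only through the muscle in which it was high, so the limit used the values tested, and without the limit 2 were called. With the pig as a replicate block, none was called (adjusted p from 0.0918 for Novel_008949 to 0.239 for Novel_002155). Novel_008949, 8 exons on AEMK02000452.1 at 3753169 to 3773552 of the minus strand, had 12.7, 24.4 and 12.3 FPKM in LT and was listed at 0 in all ST libraries (adjusted p = 0.00207). On the plus strand of the same stretch, Novel_008830, also with 8 exons, had 0.944, 2.01 and 0.937 FPKM in LT and 0.0322, 0 and 0 FPKM in ST, and was not called (adjusted p = 0.0562). Other transcripts of the locus of Novel_008949, XLOC_126437, were present in ST: its mRNA transcripts summed to 128, 193 and 113 FPKM in LT and 3.81, 54.9 and 3.57 FPKM in ST. ST replicate 2 lay between the other ST libraries and LT. The locus was not called with all libraries (adjusted p = 0.0890) and was called without ST replicate 2 (adjusted p = 0.00107).

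Novel_002155, at chr13:87744589-87749475, lay opposite to ZIC1, a zinc finger transcription factor of body patterning. It had 0.883, 0.779 and 0.732 FPKM in LT and 0.0187, 0 and 0 FPKM in ST (adjusted p = 0.0371). Every LT library was above every ST library. Novel_001448, Novel_001476 and Novel_001478 were lower in ST and belonged to XLOC_024074, a locus opposite to the fast myosin heavy chain genes of chromosome 12. Novel_001448 had 2.42, 4.41 and 6.58 FPKM in LT and was listed at 0 in ST (adjusted p = 0.0139). Novel_001476 had 4.59, 1.33 and 2.92 FPKM in LT, Novel_001478 had 5.63, 1.46 and 1.997 FPKM, and both were listed at 0 in ST. These genes are close copies of each other in a row, so the assignment of reads among the 46 transcripts of this locus is uncertain.

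Novel_006286 was the transcript called higher in ST. It had 2 exons at chr5:19193281-19197296 between annotated genes, 511 bases from the nearest one. RefSeq lists the lncRNA LOC110260668 there, and 1 unannotated transcript overlapped it on the opposite strand. Novel_006286 had 0 in each LT library and 2.79, 1.24 and 3.86 FPKM in ST (adjusted p = 0.0304).

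A further 5 transcripts lower and 9 higher in ST came next by p and were not called with all libraries. Moving one way in all 3 pigs was a condition of this choice. Those below 0.1 FPKM in every library of 1 muscle passed the FPKM limit only through the other, so the limit used the values tested. The lower ones included Novel_001027 opposite to SHISA2, with 5.50, 8.57 and 5.77 FPKM in LT and 0.443, 0.994 and 0.419 FPKM in ST. Its adjusted p was 0.0534 with all libraries, 0.0201 without ST replicate 2 and 0.184 with the replicate block. Also lower was Novel_000239 opposite to FERMT2, an integrin activator, with 0.552, 0.994 and 0.737 FPKM in LT and 0 in ST. Novel_000913 opposite to IGFN1, a muscle protein of the Z-disc, was lower too, with 1.36, 1.84 and 6.94 FPKM in LT and at most 0.00342 FPKM in ST. The higher ones included Novel_003440 opposite to NNT, the mitochondrial transhydrogenase, with 0, 0.134 and 0 FPKM in LT and 1.57, 0.771 and 0.896 FPKM in ST (adjusted p = 0.143). Novel_002022 opposite to TRAK1, an adaptor of mitochondrial transport, had 0.103, 0 and 0.0159 FPKM in LT and 0.939, 0.901 and 0.698 FPKM in ST. Novel_004099 opposite to CTNND1, Novel_007275 opposite to PXDC1, Novel_008917 on a scaffold and Novel_009467 opposite to PHKA1 were listed at 0 in LT and had from 0.324 to 1.25 FPKM in ST.

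Because reads are split among the transcripts of a locus, FPKM was also summed over the mRNA transcripts of each locus and tested with the same sums of all genes. Of the 5678 loci, 1397 also list an unannotated lncRNA, which the sums leave out. Of 5678 unannotated loci, 18 were called, 9 higher and 9 lower in ST. Over all 19672 genes and loci, 0.574% were called, 0.412% higher and 0.163% lower. Of the 18, 6 were above 0.1 FPKM only in the muscle in which they were high, so for these the limit used the values tested, and without the limit on FPKM 7 of the 18 stayed called. With a pseudocount of 1, 8 stayed called, and the calls opposite to ZIC1, MSS51, ADAMTS17, EEF2K, C10H10orf67, PHKA1, LPGAT1, LPL, KMT2C and MDH1 were lost. Without a variance trend, 7 of the 18 stayed called, and without any one library other than ST replicate 2, at most 6 did. The loci named next were chosen because they were called, after their values were seen.

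Among the 9 lower loci were those opposite to ZIC4, ZIC1 and MAF. XLOC_028610 lay opposite to ZIC4, the neighbour of ZIC1, and had 1.63, 2.25 and 2.42 FPKM in LT and 0.124, 0 and 0.192 FPKM in ST (adjusted p = 0.0206). The ZIC4 gene had less, with 0.826, 0.840 and 0.958 FPKM in LT and 0.0269, 0 and 0.0327 FPKM in ST. XLOC_033839, which holds Novel_002155 alone, was opposite to ZIC1 (adjusted p = 0.00505). The ZIC1 gene itself had 6.63, 9.09 and 8.44 FPKM in LT and 0.286, 0 and 0.0440 FPKM in ST. XLOC_098238, opposite to MAF, a leucine zipper factor, had 4.77, 7.66 and 7.79 FPKM in LT and 0.843, 1.80 and 0.656 FPKM in ST (log2 fold change -2.60 ± 0.37 SE, adjusted p = 0.0402). The MAF gene had 75.1 ± 1.58 FPKM in LT and 23.1 ± 21.3 FPKM in ST and was not called (adjusted p = 0.103, 0.00213 without ST replicate 2 and 0.0461 with the block).

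The other lower loci follow. XLOC_018094, opposite to SHISA2, fell by 3.28 ± 0.33 SE on the log2 scale (adjusted p = 0.0118), and its gene went from 105 ± 23.8 FPKM in LT to 11.9 ± 7.86 FPKM in ST. XLOC_096415, opposite to VAPA, a membrane protein of the endoplasmic reticulum, had 14.8, 12.2 and 15.1 FPKM in LT and 5.26, 4.83 and 4.56 FPKM in ST. XLOC_038431, opposite to MSS51, a muscle protein of mitochondria (RefSeq lists PPP3CB there), had 0.770, 1.23 and 0.608 FPKM in LT and 0.0128, 0.0203 and 0.0626 FPKM in ST. XLOC_071639, opposite to EEF2K, the kinase of elongation factor 2, fell by 1.53 ± 0.22 SE on the log2 scale, and XLOC_091795, opposite to PEX26, a protein of peroxisomes (RefSeq lists TUBA8 there), by 1.21 ± 0.19 SE. With a pseudocount of 1, the value for XLOC_071639 was -0.87, which is within the fold limit. XLOC_003780, opposite to the protease gene ADAMTS17, had 0.505, 0.550 and 0.546 FPKM in LT and 0.113, 0.0436 and 0.00917 FPKM in ST. The ADAMTS17 gene had 0.886 ± 0.386 FPKM in LT and 0.918 ± 0.345 FPKM in ST.

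Among the 9 higher loci was XLOC_039958, opposite to LPL, the lipase that frees fatty acids from circulating lipoproteins. It had 0.635, 0.668 and 0.696 FPKM in LT and 2.53, 1.57 and 2.69 FPKM in ST (log2 fold change 1.59 ± 0.25 SE, adjusted p = 0.0464). With a pseudocount of 1 the log2 fold change was 0.95 (adjusted p = 0.0623). The LPL gene had 66.2 ± 6.74 FPKM in LT and 176 ± 9.14 FPKM in ST. XLOC_124365, opposite to LPGAT1, an acyltransferase of phospholipids, had 0.290, 0.111 and 0.131 FPKM in LT and 1.32, 0.789 and 1.503 FPKM in ST. XLOC_073248, opposite to MDH1, the cytosolic malate dehydrogenase, had 6.77, 5.63 and 8.39 FPKM in LT and 20.2, 16.6 and 31.6 FPKM in ST (log2 fold change 1.67 ± 0.27 SE, adjusted p = 0.0471). The MDH1 gene had 47.4 ± 4.14 FPKM in LT and 165 ± 56.0 FPKM in ST.

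XLOC_108236, opposite to VEGFA, a growth factor of blood vessels, had 1.42, 0.972 and 1.27 FPKM in LT and 4.12, 3.05 and 3.47 FPKM in ST (log2 fold change 1.47 ± 0.22 SE, adjusted p = 0.0408). With quantile normalization the calls of the loci opposite to LPL and LPGAT1 (adjusted p = 0.0574 each), MDH1 (0.0605), VEGFA (0.0574) and KMT2C (0.0667) were lost. XLOC_089135, opposite to MYBPC1, the slow form of myosin binding protein C, had 22.7, 17.4 and 19.8 FPKM in LT and 89.4, 48.5 and 68.0 FPKM in ST (log2 fold change 1.74 ± 0.25 SE, adjusted p = 0.0402). Its call was lost without the limit on FPKM (adjusted p = 0.0746) and without a variance trend (0.0712). It was also lost without any one library other than ST replicate 2 (0.106 to 0.172). XLOC_129589, opposite to PHKA1, the muscle alpha subunit of phosphorylase kinase, was listed at 0 in LT and had 1.24, 1.25 and 0.351 FPKM in ST. The PHKA1 gene had 205 ± 46.5 FPKM in LT and 61.6 ± 60.0 FPKM in ST and was not called (adjusted p = 0.113, 0.00277 without ST replicate 2 and 0.0342 with the block). XLOC_059908, opposite to KMT2C, a histone methyltransferase, was listed at 0 in LT and had 0.199, 0.327 and 0.250 FPKM in ST. XLOC_017508, mainly opposite to C10H10orf67, had 0.0252, 0.0466 and 0.0271 FPKM in LT and 0.938, 0.909 and 0.473 FPKM in ST, above the gene, which had 0.132, 0.0700 and 0.291 FPKM in ST. XLOC_090464, which holds Novel_006286, was the remaining one. The loci and the genes opposite to them were measured in the same 6 libraries.

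**Figure D4:**
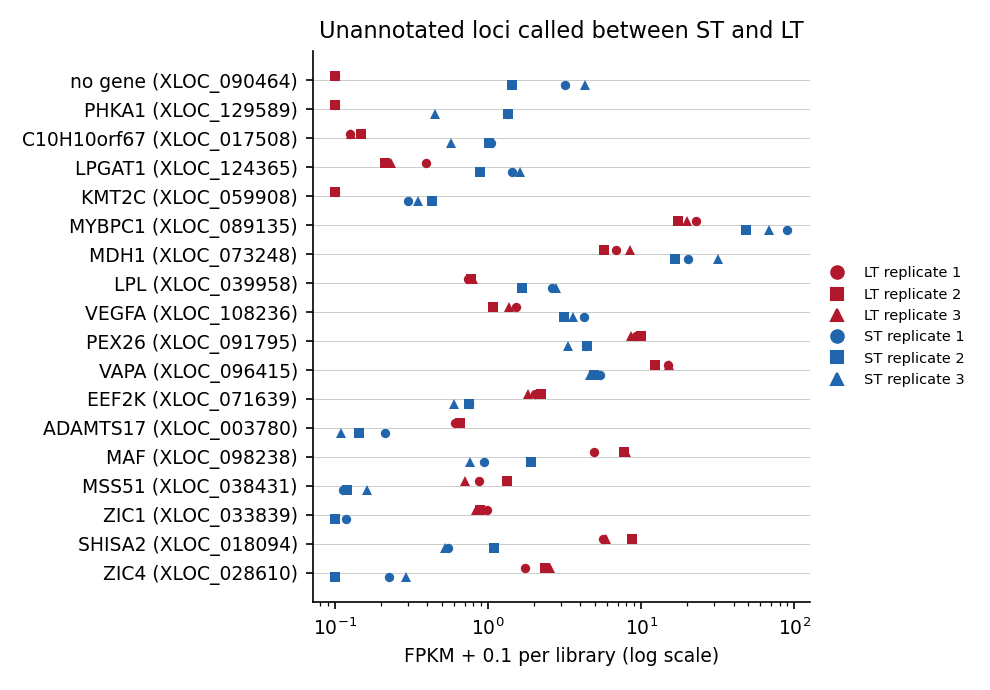
FPKM + 0.1 per library, on a log scale, of the 18 unannotated loci called between ST (blue) and LT (red), with the gene on the opposite strand and 1 marker shape per pig. In each locus the 3 ST values lie on 1 side of the 3 LT values.

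The number of calls changed with the libraries used and with the pairing. Without ST replicate 2, 210.0 unannotated loci were called, 111 higher and 99 lower, beside 5.08% of all genes and loci (3.31% higher and 1.77% lower). With the pig as a replicate block, 146 loci were called, 73 higher and 73 lower, beside 4.06% (2.84% higher and 1.23% lower), while no transcript was. All 18 loci were among those called in both. For transcripts, 33 of 9175 were called without ST replicate 2, beside 0.507% of all transcripts, and 4 of the 6 remained. Leaving out any one of the other 5 libraries gave from 1 locus (without LT replicate 2 or LT replicate 3) to 6 loci (without ST replicate 3), and from 1 transcript (without ST replicate 1) to 5 transcripts (without LT replicate 1 or LT replicate 3).

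In some loci opposite to sarcomere genes, ST replicate 2 stood apart from the other ST libraries. Leaving out an ST library that lies near LT lowers p in such loci by its nature, so the smaller p-values without it are no separate support. Of 54 genes on a list of the sarcomere and Z-disc, 45 were matched by symbol and 27 had an unannotated mRNA transcript on the opposite strand, in 27 loci. With all libraries 1 of these loci was called, XLOC_089135. Without ST replicate 2, 6 were called higher and 9 lower, and with the replicate block and all libraries 5 higher and 3 lower. Of all genes and loci, 0.574% were called with all libraries, 3.31% higher and 1.77% lower without ST replicate 2, and 2.84% higher and 1.23% lower with the block. XLOC_095053, opposite to TNNT1, the slow troponin T, had 69.6, 36.3 and 44.6 FPKM in LT and 359, 67.7 and 327 FPKM in ST (adjusted p = 0.134, 0.00422 without ST replicate 2 and 0.0337 with the block). XLOC_037288, opposite to MYL2, a regulatory light chain of slow myosin, had 55.1, 36.5 and 40.5 FPKM in LT and 337, 37.3 and 302 FPKM in ST (adjusted p = 0.241, 0.00268 without ST replicate 2 and 0.0905 with the block). In both, ST replicate 2 lay at or near the LT values. XLOC_014485, opposite to TNNI1, the slow troponin I, had 15.2, 11.05 and 3.67 FPKM in LT and 48.5, 3.74 and 50.2 FPKM in ST (adjusted p = 0.521, 0.0418 without ST replicate 2 and 0.396 with the block).

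Other loci of the list differed in either direction, without a call with all libraries. XLOC_027311, opposite to MYL3, was higher in ST (adjusted p = 0.115, 0.00277 without ST replicate 2 and 0.0321 with the block). So was XLOC_037925, opposite to ACTN2 (adjusted p = 0.0741, 0.00623 without ST replicate 2 and 0.0265 with the block). In the loci named next, LT lay mostly above ST. XLOC_002909, opposite to TPM1, had 787, 742 and 701 FPKM in LT and 119, 287 and 28.1 FPKM in ST (adjusted p = 0.0937, 0.0141 without ST replicate 2 and 0.0378 with the block). XLOC_099843, opposite to MYBPC2, the fast myosin binding protein C, had 33.3, 35.8 and 23.0 FPKM in LT and 5.01, 21.7 and 0.976 FPKM in ST (adjusted p = 0.180, 0.0189 without ST replicate 2 and 0.0571 with the block). In XLOC_065802, opposite to TNNT3, the muscles overlapped, with 713, 741 and 579 FPKM in LT and 224, 606 and 42.1 FPKM in ST (adjusted p = 0.260, 0.0453 without ST replicate 2 and 0.109 with the block). The myosin heavy chain locus XLOC_024074 had 289, 466 and 355 FPKM in LT and 86.6, 285 and 18.2 FPKM in ST (adjusted p = 0.206, 0.0279 without ST replicate 2 and 0.0815 with the block). In the genes opposite to these named loci, too, ST replicate 2 lay between the other ST libraries and LT or among the LT values. TNNT1 had 382 FPKM there against 1746 and 2079 FPKM in the other ST libraries, and MYBPC2 had 629 FPKM against 119 and 28.0 FPKM. This did not hold for every gene of the list. In TPM2 (6456 FPKM) and FLNC (619 FPKM), ST replicate 2 had the highest value of all libraries.

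**Figure D5:**
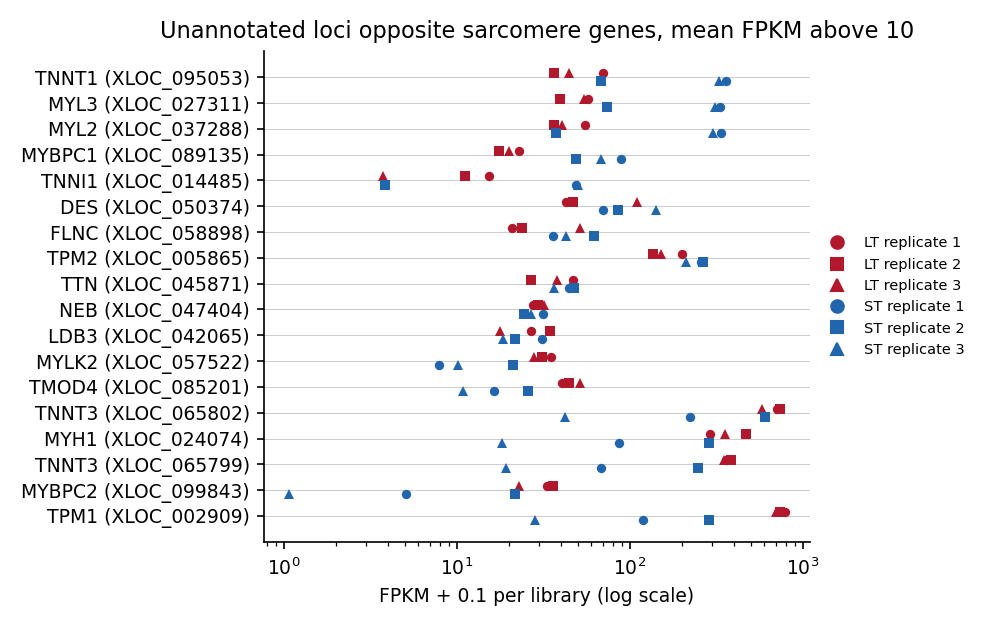
FPKM + 0.1 per library, on a log scale, of the unannotated loci opposite to sarcomere and Z-disc genes with a mean FPKM above 10, for LT (red) and ST (blue) with 1 marker shape per pig. ST replicate 2 (blue squares) lies nearer to LT than the other ST libraries do for TNNT1, MYL2 and MYBPC2. Of the rows named TNNT3, XLOC_065799 lies where RefSeq lists TNNI2, the fast troponin I.

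Loci with many transcripts were also found opposite to sarcomere genes. XLOC_047404, opposite to NEB (nebulin, which runs along the thin filament), held 68 unannotated mRNA transcripts. Its sum was 27.5, 29.2 and 31.6 FPKM in LT and 31.2, 24.3 and 26.8 FPKM in ST, so the muscles overlapped. One of its transcripts, Novel_003105, with 145 exons, had 0.519, 0.234 and 0.264 FPKM in LT and 1.74, 1.301 and 2.005 FPKM in ST, and was not called (adjusted p = 0.185). Of the 68 transcripts, 4 lay higher and 7 lower in ST without overlap, a share near the 16.3% of all transcripts. XLOC_024074, opposite to the myosin heavy chain genes, held 46.

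Other lists of muscle genes were counted in the same way, beside the 0.574% of all genes and loci called. The lists were drawn up for genes on the same strand and were counted on the opposite strand after the data were seen, since 1 transcript alone lay on the same strand as a listed gene. For glycolysis, glycogen and phosphagen, 1 of 17 loci was called higher (XLOC_129589) and none lower. For excitation-contraction coupling and calcium handling (15 loci), the dystrophin complex and costamere (16), fatty acid oxidation and mitochondria (12), the extracellular matrix (19) and proteolysis in muscle (8), none was called. The median log2 difference of loci was 0.22 for the sarcomere, -0.67 for calcium handling, 0.15 for the dystrophin complex, -0.07 for glycolysis, 0.63 for fatty acid oxidation, -0.16 for the matrix and 0.27 for proteolysis, beside 0.01 for all unannotated loci and 0.13 for all genes and loci. Over the single transcripts of the lists, the median had the other sign for the sarcomere (-0.14) and proteolysis (-0.03). For the other lists the sign was the same. Without ST replicate 2, calcium handling had 1 higher and 3 lower, glycolysis 2 higher and 3 lower, and fatty acid oxidation 1 higher, where 3.31% of all genes and loci were higher and 1.77% lower. With the replicate block, calcium handling had 3 lower, glycolysis 1 higher and 3 lower, and fatty acid oxidation 2 higher, where 2.84% were higher and 1.23% lower.

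Genes that mark other cell types were also compared, and only 2 of them, both endothelial, were called with all libraries. With the replicate block, KDR was called too. In bulk tissue, fewer cells of a type and less RNA per cell cannot be told apart. The endothelial genes found (PECAM1, CDH5 and KDR, 3 of 4 on the list) summed to 45.3 ± 10.8 FPKM in LT and 114 ± 20.0 FPKM in ST, led by PECAM1, and PECAM1 and CDH5 were called. Smooth muscle genes (3 of 3, led by ACTA2) summed to 49.0 ± 10.3 and 71.5 ± 7.82 FPKM, and satellite cell genes (2 of 2, led by PAX7) to 1.78 ± 0.283 and 2.62 ± 0.674 FPKM, with no gene called. Fibre genes (7 of 11 matched, led by TNNC2) summed to 31578.5 ± 4084 FPKM in LT and 18309.5 ± 7088 FPKM in ST. Within them, the means of TNNC2 (8270 and 2702 FPKM), TNNT3 (7101 and 1908.5 FPKM) and MYH1 (6731 and 2584 FPKM), genes of fast fibres, were lower in ST. Those of CKM (2068 and 2561 FPKM), DES (1955 and 3057 FPKM) and TTN (3024 and 3136 FPKM) were not. No fibre gene tested was called, and TTN, summed here over several Ensembl genes of that name, was not tested. Without ST replicate 2, TNNC2, TNNT3 and MYH1 were called lower in ST (adjusted p = 0.0204, 0.0234 and 0.0176), and with the replicate block they were not (0.0795, 0.0664 and 0.0968). The genes not matched were MB, MYH2, MYH4 and MYH7. The endothelial, smooth muscle, satellite cell and fibre sums did not overlap between the muscles (p = 0.1 each, exact permutation test, unadjusted over 9 lists). Sums for adipocyte (185 ± 60.2 and 149 ± 35.0 FPKM, 6 of 6, led by PLIN4), fibroblast (1016 ± 360.2 and 952 ± 287 FPKM, 6 of 6, led by COL3A1), immune (10.9 ± 1.89 and 17.6 ± 6.86 FPKM, 5 of 5, led by CD163), erythroid (868 ± 193 and 777 ± 231 FPKM, 2 of 3, led by HBB) and nerve genes (27.4 ± 15.1 and 30.6 ± 7.02 FPKM, 3 of 4, led by PMP22) overlapped. No marker found was at 0 in all libraries. The part of these differences in the results for unannotated loci was not tested.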

How the data were processed

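The deposited tables, 1 per library, give FPKM for each transcript, with its class, position, exon number and length. The authors obtained them by read filtering (SOAPnuke), alignment to the Sscrofa11.1 genome (HISAT2) and reference-based assembly (StringTie). Class and coordinates were used as deposited. Overlap was computed here against the annotated genes of the tables and, by position, the RefSeq genes of Sscrofa11.1. Of 21902 genes, 14692 had an Ensembl symbol, and others were named by the RefSeq gene at their position. For ST against LT, log2(FPKM + 0.1) entered 1 fit over all 52102 transcripts and 1 over 19672 genes and loci. The tool was limma (version 3.58.1, under R 4.3.3), which modelled a trend of the variance with the mean, and p-values were adjusted by Benjamini-Hochberg. Same-numbered samples came from 1 pig by the study's methods and titles. Their residuals correlated at 0.0723 to 0.0914 over transcripts and 0.261 to 0.292 over genes and loci, and those of other numbers at -0.0512 to -0.0316 and -0.185 to -0.109. The methods name no block, so the block on pig was an alternative and the main fit does not use the pairing. The paper does present taking both muscles from each pig as a way around differences between individuals.

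On simulated data, with 200 features changed by 4 on the log2 scale, 157 of 200 were recovered among 52102 transcripts with 10 other calls, and 196 of 200 among 19672 genes and loci with 10 other calls. With the block, 56 and 187 were recovered. These counts hold for a change of this size, which is far above the fold limit, and the recovery of smaller changes was not tested. The counts are not split by FPKM level, so they give no power for transcripts at low FPKM, as most unannotated mRNA transcripts were. They also do not show how well the block recovers changes in libraries paired by pig.

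The transcripts named were the 10 highest by mean, up to 10 per direction with the smallest p and 1 direction in all pigs, the 5 highest per position, the 3 longest, those with the most exons, and the 3 loci with the most transcripts. Some that the rule picks are not named in the text. One locus that the rule names is not reported here. The transcripts, lists and tests were chosen with earlier results of these data known. Python 3.11.15 gave the remaining values (pandas 2.3.3, scipy 1.17.1, numpy 2.4.6) and the figures (matplotlib 3.10.9). Alternatives were other pseudocounts and filters, quantile normalization, rescaling to nuclear transcripts, no variance trend, the block and leaving out each library.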

Additional observations from a re-analysis of the deposited data

How the results depend on the processing

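The 6 transcripts called (76 of all kinds) became 1 with a pseudocount of 1 (37 of all kinds), 2 without a filter on FPKM (30.0), 13 with FPKM above 0.1 in at least 3 libraries (120.0), 2 with a mean FPKM above 0.5 (45) and 0 with the replicate block (2), where 641 passed an unadjusted p under 0.05 with the fold limit. Leaving out 1 library gave 1 to 33 calls, the highest without ST replicate 2. The 18 loci called (113 of all genes and loci) became 11 with a pseudocount of 1 (87 of all), 9 without a filter (30.0), 146 with the replicate block (799), 52 after rescaling to nuclear transcripts (315) and 7 without a variance trend (29). Leaving out 1 library gave 1 to 210.0 calls: 2 without LT replicate 1, 1 without LT replicate 2, 1 without LT replicate 3, 2 without ST replicate 1, 210.0 without ST replicate 2 and 6 without ST replicate 3. Quantile normalization gave 7 transcripts and 13 loci, with 4 loci higher and 9 lower, and moved the median log2 difference of all genes and loci from 0.13 to -0.01, while rescaling to nuclear transcripts moved it to 0.23. At an unadjusted p under 0.05 with the fold limit, 244 of 637 transcripts were then higher in ST, against 371 of 645 after rescaling to nuclear transcripts and 303 of 623 as reported. No called transcript or locus changed direction under the alternatives run. Over all pairs of a called transcript and an alternative, the call held in 46 and was lost in 43, and over those of a called locus it held in 145 and was lost in 119. The cause was not tested.

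The FPKM share of unannotated mRNA transcripts was lower in ST under all alternatives (difference -0.840 to -0.581 percentage points when 1 library was left out). The ratio of annotated to unannotated medians was 0.232 over all listed transcripts, the reverse of 3.38, and 4.57 for FPKM above 0.1 in at least 3 libraries. The 80.1% opposite to a gene alone became 74% when the gene had to cover most of the span. On chromosomes, 91.2% overlapped an annotated gene of the files on either strand and 96.8% a RefSeq gene. Transcripts above 0.1 FPKM in all 6 libraries had a median of 2768 bases and 8 exons. The depth behind single FPKM values is unknown, so values near 0.1 cannot be separated from counting error.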
